A study of Mus musculus with 6 samples.

Results

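The core of the RAS to ERK cascade was examined in mouse inner medullary collecting duct (IMCD) cells as 7 listed genes, Hras, Nras, Braf, Araf, Map2k1, Map2k2 and Mapk3. A gene's value was that of its brightest probe set among those annotated to that gene alone. This gave a value for 5 of the 7 genes, out of 22180 genes so measured on the arrays. No probe set was listed for Hras or Mapk3 in the annotation used, and these genes were not analysed here. All 5 measured genes were brighter than the filter on dim genes (a mean log2 signal of 5.37), which left 13308 genes to test.

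The samples were 3 arrays of cells with the missense variant ILK-T173I and 3 arrays of cells with wild-type ILK, both introduced with GFP on a lentiviral vector and kept as stable lines. ILK (integrin-linked kinase) is an adaptor protein where integrins meet the actin cytoskeleton. A 15-minute pulse of EGF at 20 ng/ml, with RNA taken 1 hour later, was common to both groups, so neither group shows the cascade without EGF. Each group is an overexpression model in an established line whose own Ilk gene is not described as removed, and the labels do not say how many lines were pooled or kept apart. If each group was 1 line, line and variant cannot be told apart. The p-values measure the spread between these arrays.

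Array medians were 5.45 to 5.52 in log2 signal over all probe sets. T173I replicates 2 and 3 lay apart from the other 4 arrays on the first principal component of the tested genes, at 38.3 and 15.8, and T173I replicate 1 was at -11.4, against -18.3 to -11.3 for wild type. Of 11 collecting duct markers, 9 were brighter than the filter, among them Cdh1, Epcam, Krt8, Krt18 and Hoxb7, and Aqp3 and Elf5 were not. Aqp2 had group means of 6.11 in T173I and 6.07 in wild type, and Scnn1a of 6.25 and 6.30. Both lay not far above the filter of 5.37, so the count of 9 alone does not mark the cell type. Of the 9 collecting duct markers tested, 2 were higher and 1 lower in T173I at an unadjusted p under 0.05 (limma). None passed the adjusted threshold, and 4.88% and 5.31% of all tested genes passed the unadjusted one upwards and downwards. All T173I arrays were above all wild-type arrays for 3 of the 9 (Krt8, Krt18 and Hoxb7) and below them for 1 (Gata3). That was so for 7.23% and 7.95% of all tested genes. Krt8 differed by 0.64 and Krt18 by 0.44 log2 units, both higher in T173I. Gata3 differed by -0.78, lower in T173I, on its brighter probe set and by 0.017 on the other. The mean of the 9 markers was -0.032 to 0.082 on the T173I arrays and -0.054 to 0.045 on the wild-type arrays, relative to the wild-type mean. Their part in the results below was not tested. Of 8 fibroblast and stromal markers 3 were brighter than the filter. Their average, taken against the wild-type mean, was -0.039 to 0.082 log2 units on the T173I arrays and -0.0092 to 0.0080 on the wild-type arrays. Among them Col1a1 had group means of 6.27 in T173I and 6.17 in wild type, about as bright as Aqp2. The level of Ilk could not be read on its own, since each probe set that lists it also lists a neighbouring gene.

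In this cascade, growth factor receptors such as the EGF receptor recruit exchange factors that load RAS, a membrane-bound GTPase, with GTP. GTP-bound RAS activates the RAF kinases, RAF phosphorylates the MEK kinases, and MEK phosphorylates ERK, which acts on cytosolic kinases and nuclear transcription factors. Signal through the cascade is carried by GTP loading and phosphorylation, which RNA levels do not measure. Most steps are served by paralogues, closely related genes of 1 family: Hras and Nras at the RAS step, Araf and Braf at the RAF step, and Map2k1 and Map2k2, which encode MEK1 and MEK2, at the MEK step.

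Of the measured core genes, Map2k1 differed most between the groups, at 1.20-fold higher in ILK-T173I cells, and it was the only one whose groups did not overlap, as the groups of 15.2% of tested genes did not. Braf averaged 1.14-fold higher in T173I cells with overlapping arrays. Nras, Araf and Map2k2 had mean differences of less than 1.06-fold in either direction. No core gene passed limma's test after adjustment over all 13308 genes, and 0 of those 13308 genes did, which is 0% of them. At an unadjusted p under 0.05 limma gave 1357 genes, 10.2% of those tested, and Map2k1 was 1 of them.

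**Figure D1:**
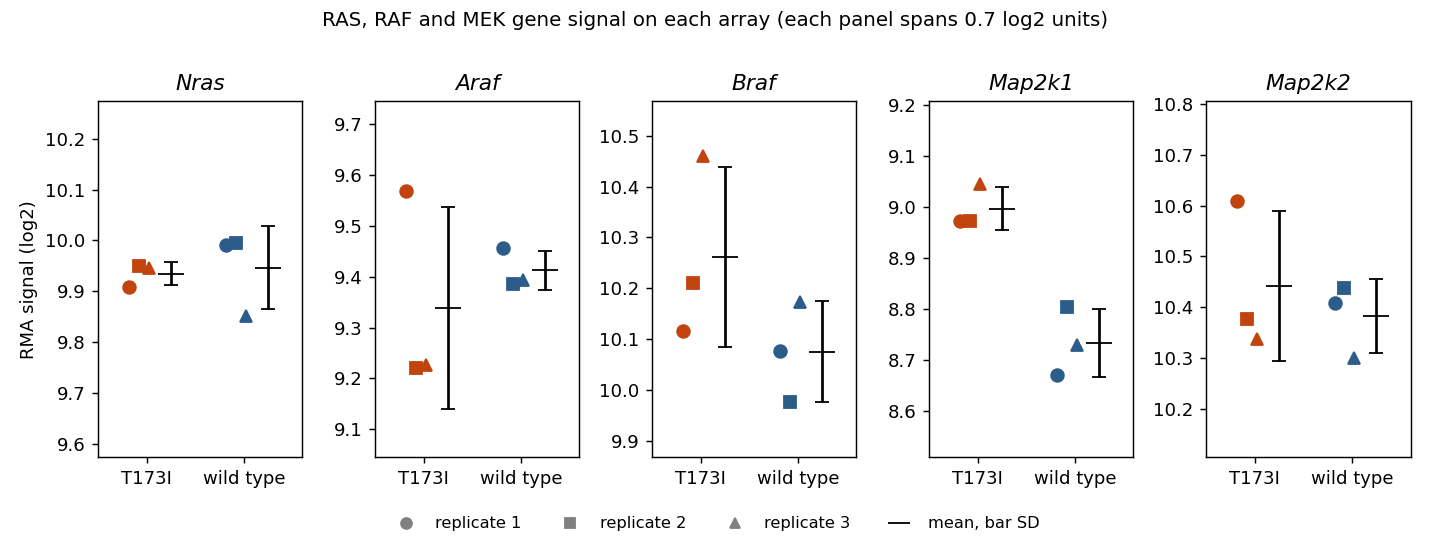
RMA signal (log2) of the 5 measured core genes on each array, T173I left of wild type; symbols mark replicates 1 to 3, and the dash and bar show the mean and SD of 3 arrays. Each panel spans 0.7 log2 units around its own gene, so heights are not comparable between panels. The 3 T173I arrays lie above the 3 wild-type arrays for Map2k1 and overlap with them for the other 4 genes.

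The only RAS gene measured was Nras, which encodes a GTPase held at the membrane by farnesyl and palmitoyl groups. Its log2 signal was 9.91, 9.95 and 9.95 in T173I replicates 1 to 3, against 9.99, 9.99 and 9.85 in wild-type replicates 1 to 3. All 3 T173I arrays lay inside the wild-type range. The difference was -0.012 log2 units with a 95% interval of -0.20 to 0.18, so a change beyond 0.87-fold to 1.13-fold lay outside the interval (limma, adjusted p = 0.96). Nras varied little over the experiment, with a range of 0.14 log2 units over all 6 arrays, and 4.88% of tested genes had a smaller one.

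At the RAF step, Braf encodes B-Raf, the RAF kinase with the highest basal activity. Braf had log2 signals of 10.12, 10.21 and 10.46 in T173I replicates 1 to 3, against 10.08, 9.98 and 10.17 in wild-type replicates 1 to 3. T173I replicates 2 and 3 lay above the wild-type arrays and T173I replicate 1 within their range. The Braf difference was 0.19 log2 units, with a 95% interval of -0.087 to 0.46 (limma, unadjusted p = 0.15, adjusted p = 0.56). It was 0.088 without T173I replicate 3, the array with the highest Braf signal.

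Araf encodes A-Raf, a RAF kinase with low basal activity and lies on the X chromosome. Araf had log2 signals of 9.57, 9.22 and 9.23 in T173I replicates 1 to 3, against 9.46, 9.39 and 9.39 in wild-type replicates 1 to 3. The T173I arrays fell on both sides of the wild-type arrays, with replicate 1 above all of them and replicates 2 and 3 below all of them. The SD of Araf was 0.20 in T173I and 0.039 in wild type (n = 3 each). The difference of -0.073 log2 units had a 95% interval of -0.35 to 0.20 (limma, adjusted p = 0.82). It was -0.19 without T173I replicate 1 (adjusted p = 0.24), -0.015 without T173I replicate 2 and -0.017 without T173I replicate 3.

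The RAF genes have unlike sequence before their starts. The 250 bases upstream of each annotated start are shown, from RefSeq on build GRCm38.p6, with capitals marking matches on either strand to any of 4 motifs. The GC box was searched as GGGCGG and the CCAAT box by the letters of its name. The cyclic AMP response element was searched as TGACGTCA, and the core site of Ets factors as CCGGAAGT. Braf lies at chr6:39725464-39725713, minus strand, and Araf at chrX:20848293-20848542, plus strand.
Braf: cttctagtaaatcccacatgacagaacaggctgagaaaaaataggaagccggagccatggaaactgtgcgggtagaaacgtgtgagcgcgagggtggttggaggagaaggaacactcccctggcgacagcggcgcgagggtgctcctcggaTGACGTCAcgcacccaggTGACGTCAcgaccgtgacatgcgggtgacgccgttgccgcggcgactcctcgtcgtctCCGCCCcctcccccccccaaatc
Araf: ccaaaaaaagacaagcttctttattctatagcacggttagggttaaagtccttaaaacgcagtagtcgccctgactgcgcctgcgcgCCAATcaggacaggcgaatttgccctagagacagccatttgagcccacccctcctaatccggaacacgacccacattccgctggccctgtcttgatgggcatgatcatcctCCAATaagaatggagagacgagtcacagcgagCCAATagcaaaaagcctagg
Braf held 2 cyclic AMP response elements, at 99 to 92 and 81 to 74 bases before the start, a motif found in 1.55% of the 32851 windows of the same length. Braf also held 1 GC box, found in 32.7% of windows. Araf held 3 CCAAT boxes, found in 33.8% of windows. None of these matches overlapped another motif.

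MEK1, the product of Map2k1, is a dual-specificity kinase that phosphorylates ERK. Map2k1 had log2 signals of 8.97, 8.97 and 9.05 in T173I replicates 1 to 3, against 8.67, 8.80 and 8.73 in wild-type replicates 1 to 3. Every T173I array was above every wild-type array, as was so for 7.23% of tested genes. The SD was 0.043 in T173I and 0.067 in wild type (n = 3 each), both below the medians over all tested genes, 0.16 in T173I and 0.098 in wild type. The difference was 0.26 log2 units with a 95% interval of 0.078 to 0.45, or 1.06-fold to 1.36-fold. Limma gave an unadjusted p of 0.012 and an adjusted p of 0.45, and the exact two-sided permutation test gave 0.1, the smallest p that 3 arrays against 3 allow. In absolute size 80.6% of tested genes differed less than Map2k1, and by unadjusted p it was number 363 of 13308.

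Map2k2 encodes MEK2, a kinase with the same substrates as MEK1. Its log2 signal was 10.61, 10.38 and 10.34 in T173I replicates 1 to 3, against 10.41, 10.44 and 10.30 in wild-type replicates 1 to 3. T173I replicate 1 was above the wild-type range and the other 2 T173I arrays were within it. The difference was 0.059 log2 units with a 95% interval of -0.18 to 0.30 (limma, adjusted p = 0.83). Without T173I replicate 1 it was -0.025, and with weights for each array's quality it was -0.015.

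The sequences before the starts of the MEK genes also differ, shown here in the same way because Map2k1 had the largest difference among the core genes and Map2k2 is its paralogue. Map2k1 lies at chr9:64253606-64253855, minus strand, and Map2k2 at chr10:81105665-81105914, plus strand.
Map2k1: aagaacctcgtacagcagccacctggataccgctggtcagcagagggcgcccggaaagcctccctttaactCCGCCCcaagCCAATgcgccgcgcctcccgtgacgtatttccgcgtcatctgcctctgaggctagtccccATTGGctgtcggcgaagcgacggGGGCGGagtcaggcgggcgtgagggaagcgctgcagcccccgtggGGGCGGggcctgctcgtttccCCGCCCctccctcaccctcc
Map2k2: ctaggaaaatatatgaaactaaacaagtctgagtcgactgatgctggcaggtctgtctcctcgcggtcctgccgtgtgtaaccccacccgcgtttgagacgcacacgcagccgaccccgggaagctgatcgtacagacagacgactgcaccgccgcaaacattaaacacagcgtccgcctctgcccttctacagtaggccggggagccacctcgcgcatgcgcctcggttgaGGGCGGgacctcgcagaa
Map2k1 held 4 GC boxes and 2 CCAAT boxes, none overlapping. Map2k2 held 1 GC box, at 18 to 13 bases before the start, and no CCAAT box. The GC content was 68.4% for Map2k1 and 59.6% for Map2k2, against 62% for Braf, 51.2% for Araf, 48.4% for Nras and a median of 52.4% over all windows. Of the 5 measured genes 4 held a GC box, found in 32.7% of windows, Nras with 2 that share a base. None held the Ets site, found in 2.88% of windows. CG pairs numbered 12 to 24 in these 5 windows, against a median of 6 over all windows. All windows were used for these shares and medians, not only those of tested genes. The contrast therefore cannot be read as a trait of the core genes.

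**Figure D2:**
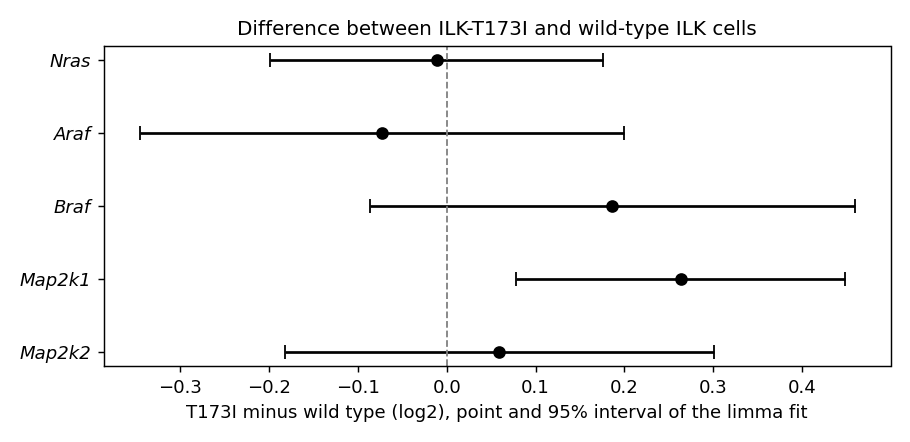
Difference in RMA signal (log2), T173I minus wild type, for the 5 measured core genes, with the 95% interval of the limma fit over 6 arrays; the dashed line marks no difference. The Map2k1 interval, 0.078 to 0.45, lies above 0, and the other 4 intervals include 0.

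Whether the balance of paralogues differed between the groups was asked within each array. Signals of different probe sets cannot be set against each other, because probe sets differ in how well they bind, so no order of abundance was read between Map2k1 and Map2k2 or between Araf and Braf. That effect is shared by all arrays and drops out when the within-array difference of a pair is compared between groups. Of the 3 pairs planned, Hras with Nras could not be measured, and the other 2 were compared.

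The Map2k1 minus Map2k2 balance was -1.64, -1.40 and -1.29 log2 units in T173I replicates 1 to 3, against -1.74, -1.64 and -1.57 in wild-type replicates 1 to 3. It was shifted towards Map2k1 in T173I replicates 2 and 3, while T173I replicate 1 lay within the wild-type range. The shift of 0.20 log2 units had a 95% interval of -0.11 to 0.52 (exact two-sided permutation p = 0.3, 0.4 adjusted over both pairs). That test cannot go below 0.1 with 3 arrays against 3, and the interval includes 0, so a difference between the paralogues in their response is neither shown nor excluded, although Map2k1 and Map2k2 stood on different sides of limma's unadjusted threshold. Without T173I replicate 1 the shift was 0.30, at the smallest p that 2 arrays against 3 allow (exact permutation p = 0.1). In T173I replicate 1 Map2k1 was 0.24 and Map2k2 0.23 above the wild-type mean, whereas in T173I replicate 3 they were at 0.31 and -0.045.

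The Araf minus Braf balance was -0.55, -0.99 and -1.23 log2 units in T173I replicates 1 to 3, against -0.62, -0.59 and -0.78 in wild-type replicates 1 to 3. It lay towards Braf in T173I replicates 2 and 3 and above the wild-type range in T173I replicate 1. The shift was -0.26 log2 units with a 95% interval of -0.84 to 0.32 (exact two-sided permutation p = 0.4, also 0.4 adjusted over both pairs). Without T173I replicate 1 the shift was -0.45, with the smallest p that 2 arrays against 3 allow (exact permutation p = 0.1).

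**Figure D3:**
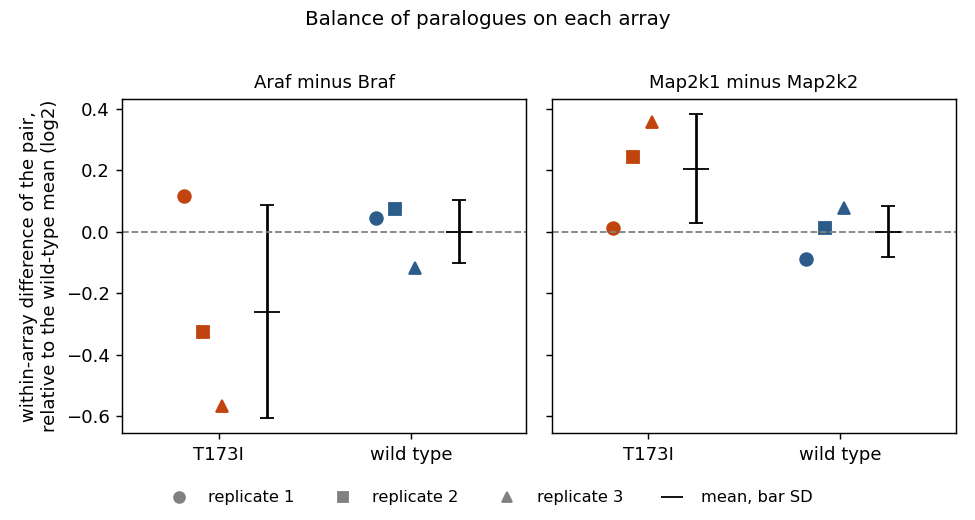
Within-array difference of 2 paralogues, relative to its wild-type mean (log2), on each array, T173I left of wild type; symbols mark replicates, and the dash and bar show the mean and SD of 3 arrays. In both pairs T173I replicate 1 lies near the wild-type arrays (0.12 for Araf minus Braf, 0.010 for Map2k1 minus Map2k2) and replicates 2 and 3 lie farther off, at -0.33 and -0.57 for Araf minus Braf and at 0.24 and 0.36 for Map2k1 minus Map2k2.

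The core genes did not follow a common course over the arrays. When each gene was centred on its own mean, the closest of the 10 pairs were Araf and Map2k2, with a mean absolute difference of 0.072 log2 units over 6 arrays, both highest on T173I replicate 1. The farthest apart were Araf and Braf, at 0.21. All these values share the same 6 arrays. The genes most like Map2k1 by this measure were Rhbdd1, a rhomboid-family protein (0.029), Mettl6, a methyltransferase (0.032), and Ramp2, an accessory protein of the calcitonin-like receptor (0.033), where the median over genes was 0.17. Those most like Braf were Phlpp1, a phosphatase of AKT (0.022), Mia3, a cargo receptor of the endoplasmic reticulum (0.026), and Ncoa6, a nuclear receptor coactivator (0.027), with a median of 0.17. Phlpp1, Mia3 and Ncoa6 each had their highest signal, like Braf, on T173I replicate 3. That follows from picking them by likeness to Braf over these same arrays.

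Genes related to the core cascade, 6 lists with 42 tested genes in all, gave 0 adjusted calls, as did all genes. The lists were RAS relatives, adaptors and exchange factors, GTPase-activating proteins, RAS lipid processing, scaffolds and modulators, and ERK substrates. They thus hold relatives of the core genes and targets of ERK as well as genes that act on the cascade. At an unadjusted p under 0.05, 3 of the 42 were higher in T173I (7.14%, against 4.88% of all tested genes) and 1 was lower (2.38%, against 5.31%). The median difference was -0.043 log2 units over the 42 genes and -0.011 over all genes. The 4 unadjusted calls are 9.52% of the 42 genes, beside 10.2% of all tested genes. Their number depended on the arrays used: without T173I replicate 1 there were 14 (33.3%, against 22.1% of all tested genes), and without wild-type replicate 2 there were 2 (4.76%, against 5.97%). With array weights there were 15 (35.7%, against 21.5%).

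Of the RAS relatives outside the listed core, 3 of 6 had a probe set. Rras, which encodes R-Ras, a GTPase that regulates integrin adhesion, had log2 signals of 11.51, 11.21 and 11.61 in T173I replicates 1 to 3, against 11.22, 11.13 and 10.79 in wild-type replicates 1 to 3. T173I replicate 2 fell within the wild-type range, so the groups overlapped. The difference was 0.40 log2 units (95% interval 0.030 to 0.77; limma, unadjusted p = 0.038, adjusted p = 0.49). Its relative Rras2, also called TC21, had a difference of 0.34 (-0.081 to 0.76), and Mras had one of -0.13 (-0.59 to 0.34).

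Among adaptors and exchange factors 6 of 11 genes were tested and none reached an unadjusted p of 0.05. Sos1, the exchange factor that EGF receptor complexes bring to RAS, had a difference of 0.41 log2 units (95% interval -0.032 to 0.85). Gab1, a docking protein, had one of -0.27 (-0.66 to 0.13), and Shc1, a receptor adaptor, one of -0.25 (-0.64 to 0.14). The 5 exchange factors Rasgrp1, Rasgrp2, Rasgrp3, Rasgrf1 and Rasgrf2 were below the filter, with group means of up to 4.99. Of the GTPase-activating proteins, which switch RAS off, 7 of 8 were tested and none reached an unadjusted p of 0.05. The 3 with the smallest p were Rasal2 at 0.51 (-0.076 to 1.10), Rasa3 at -0.38 (-0.94 to 0.18) and Rasa2 at 0.27 (-0.15 to 0.68).

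All 8 listed genes of RAS lipid processing were tested, and their differences were the narrowest of the 6 lists, from -0.12 to 0.16 log2 units. Zdhhc9, a palmitoyltransferase of Hras and Nras, had a difference of 0.16 (95% interval -0.082 to 0.40). Fnta, the shared alpha subunit of farnesyltransferase, had one of -0.10 (-0.29 to 0.089), and Lypla2, a thioesterase, one of -0.12 (-0.36 to 0.12). None had an unadjusted p under 0.05.

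Scaffolds and modulators of RAF, MEK and ERK had 11 tested members. By limma's unadjusted threshold of 0.05, 1 was higher and 1 lower, beside 4.88% and 5.31% of all tested genes. All T173I arrays were above all wild-type arrays for 3 members and below them for 3, beside 7.23% and 7.95% of tested genes. Pea15a encodes a small protein that binds ERK and holds it in the cytoplasm. Its log2 signal was 9.34, 9.62 and 9.58 in T173I replicates 1 to 3, against 9.13, 9.18 and 9.18 in wild-type replicates 1 to 3. Every T173I array was above every wild-type array, and the difference was 0.35 log2 units (0.11 to 0.58; limma, unadjusted p = 0.011, adjusted p = 0.45). Pebp1, known as RAF kinase inhibitor protein, had log2 signals of 8.04, 7.93 and 7.86 in T173I replicates 1 to 3, against 8.13, 8.21 and 8.12 in wild-type replicates 1 to 3. The T173I arrays were all below the wild-type arrays, as was so for 7.95% of tested genes. The Pebp1 difference was -0.21 log2 units (-0.41 to -0.0070; limma, unadjusted p = 0.044, adjusted p = 0.49). A dimmer probe set of Pebp1 had a difference of -0.066. Cnksr1, a scaffold at the membrane, had a difference of 0.25 (-0.0078 to 0.50).

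ERK substrates had 7 tested members of 10. By the same threshold 1 was higher and 0 lower, beside 4.88% and 5.31% of all tested genes. All T173I arrays were above all wild-type arrays for 2 members and below them for 1, beside 7.23% and 7.95% of tested genes. Elk3, an Ets factor of the ternary complex family, had log2 signals of 9.16, 9.63 and 9.82 in T173I replicates 1 to 3, against 9.03, 8.81 and 8.98 in wild-type replicates 1 to 3. All 3 T173I arrays were the higher ones, with replicate 1 nearest to wild type, and the difference was 0.60 log2 units (0.17 to 1.02; limma, unadjusted p = 0.013, adjusted p = 0.45). Mknk1, a kinase of translation factor eIF4E, had a difference of 0.21 (-0.00037 to 0.41). Rps6ka3, the ribosomal S6 kinase RSK2, had one of -0.24 (-0.54 to 0.051).

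Kinases of the parallel JNK, p38 and ERK5 cascades, 11 tested, had a median difference of 0.058 log2 units, and the core genes one of 0.059. Of the 11, 2 were higher and 0 lower by limma's unadjusted threshold, which 4.88% and 5.31% of all tested genes passed upwards and downwards. That count was 1 with repeated quantile normalization and when any array other than T173I replicate 1 was left out, and 3 without T173I replicate 1. All T173I arrays were above all wild-type arrays for 2 of the 11 and below them for 0, beside 7.23% and 7.95% of tested genes. Mapk11, p38 beta, had log2 signals of 9.72, 10.52 and 10.59 in T173I replicates 1 to 3, against 8.93, 9.63 and 9.38 in wild-type replicates 1 to 3. The groups did not overlap, and the difference was 0.96 log2 units (0.30 to 1.63; limma, unadjusted p = 0.012, adjusted p = 0.45). Map2k3, a MEK of the p38 cascade, had a difference of 0.43 (0.0011 to 0.85), and Mapk14, p38 alpha, had one of 0.17 (-0.11 to 0.46).

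**Figure D4:**
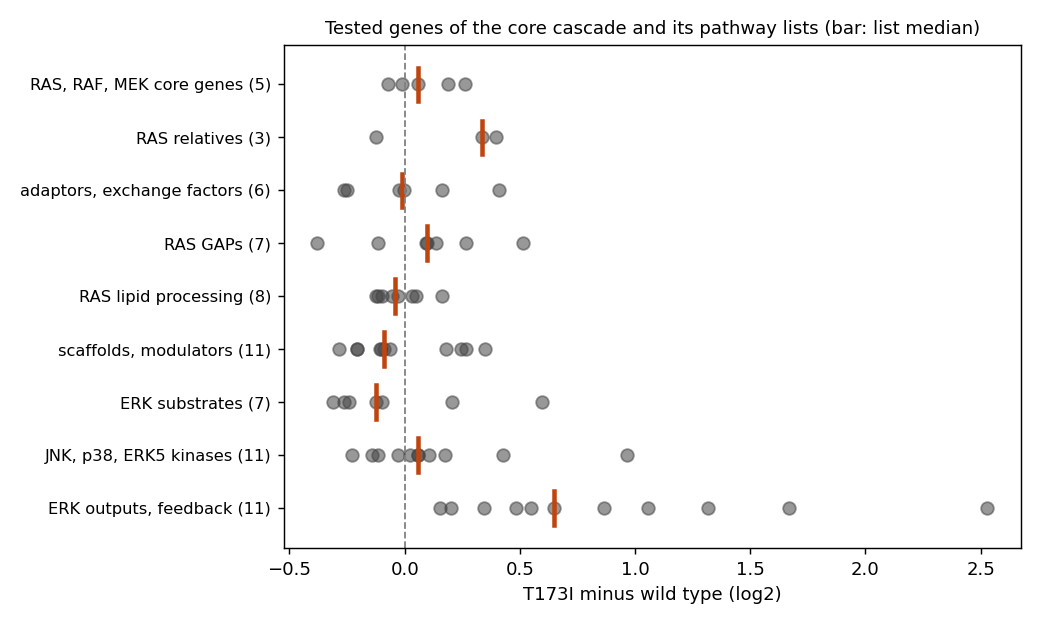
Difference in RMA signal (log2), T173I minus wild type, for each tested gene (points) of the core cascade and of 8 related lists, with the number of genes in brackets; the bar is the list median and the dashed line marks no difference. The 5 core genes lie between -0.073 and 0.26, while the ERK outputs and feedback inhibitors reach 2.53.

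RNA of the core genes and of ERK's outputs was compared array by array. A list of 11 tested output and feedback genes, among them Etv4, Etv5, Ccnd1 and Dusp6, had a median difference of 0.65 log2 units with all 11 differences positive, against a median of -0.011 and 47.4% positive over all tested genes. This list was chosen with earlier results of these data known, so these values describe it and test nothing. The median was 0.34 without T173I replicate 2. At limma's unadjusted threshold 5 members were higher, beside 4.88% of all tested genes. Calls numbered 1 without wild-type replicate 1 (5.03% of all tested genes in that fit) and 10 without T173I replicate 1 (22.1%). The mean of the output list, against the wild-type mean, was 0.17, 1.43 and 1.07 in T173I replicates 1 to 3. It was -0.21, 0.17 and 0.035 in wild-type replicates 1 to 3. The mean level of the 5 core genes was 0.13, 0.037 and 0.093 in T173I replicates 1 to 3, against 0.011, 0.0098 and -0.020 in wild-type replicates 1 to 3. Among the T173I arrays, the output list was lowest and the core mean highest in T173I replicate 1. The core mean had an SD of 0.045 over the T173I arrays, and Araf and Map2k2 were both highest on T173I replicate 1. Map2k1 alone was 0.24, 0.24 and 0.31 above the wild-type mean in T173I replicates 1 to 3. Whether RNA of the core genes bears on the output list was not tested.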

How the data were processed

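Log2 signals of 6 arrays, 3 of ILK-T173I and 3 of wild-type ILK cells, were used as deposited. The authors made these log2 values with RMA, per the submitters' processing notes. Version and probe set definition were not stated there. RMA gives the arrays like distributions and so hides a shift of most transcripts. For arrays, their number limits precision.

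Of 41345 probe sets, 23521 had 1 gene symbol in the platform annotation, 1814 had several and 16010 are unnamed here. A gene took its brightest probe set by mean over the arrays, and the 40% of genes with the lowest mean were left out. Groups were compared with limma (version 3.58.1, R 4.3.3), lmFit and eBayes, two-sided, with no covariate and Benjamini-Hochberg adjustment over 13308 genes, threshold 0.05. Paralogue balances were compared by exact permutation over arrays, with ordinary least squares intervals. The scripts were tested on simulated data. Named genes were the core genes, up to 3 members of each list with the smallest unadjusted p, and the 3 profiles nearest to the core gene of smallest p and to that of largest range. For ERK outputs, covered only as a list, members named are examples without values. The members and lists were chosen with earlier results of these data known. Promoter windows come from RefSeq, GRCm38.p6. Same-numbered arrays were not treated as pairs. Alternatives covered the filter, prior, normalization, probe set rule, array weights, replicate block and leaving out each array.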

Additional observations from a re-analysis of the deposited data

How the results depend on the processing

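Of the 14 alternatives 9 could move a core gene's difference, and of the 45 differences under these, 40 kept their sign and 5 changed it. The other 5 alternatives leave it as it is and bear only on the p. Under all 14, 0 had an adjusted p under 0.05. Map2k1 was positive under all 14, at 0.23 to 0.30 log2 units when 1 array was left out and 0.25 to 0.27 otherwise, with limma's unadjusted p at 0.0078 to 0.047 and adjusted p at 0.13 to 0.84. The sign changes were those of Map2k2 with array weights (-0.015) and without T173I replicate 1 (range over arrays left out, -0.025 to 0.11), and of Nras without T173I replicate 1, wild-type replicate 1 or wild-type replicate 2 (range -0.058 to 0.013). The cause was not tested. Leaving out arrays gave 0.088 to 0.26 for Braf and -0.19 to -0.015 for Araf, and array weights gave 0.33 for Braf (unadjusted p = 0.016, adjusted p = 0.16). Of the 10 alternatives run on the balances 7 could move them, and both kept their sign under these, at 0.13 to 0.30 for Map2k1 minus Map2k2 and -0.45 to -0.11 for Araf minus Braf when an array was left out.

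Over all genes, adjusted calls numbered 0 under every alternative but 1, and leaving out single arrays gave 0 to 156, the 156 without T173I replicate 1. Genes at an unadjusted p under 0.05 numbered 670 to 2946 when 1 array was left out (670 and 795 without wild-type replicates 1 and 2, 2946 without T173I replicate 1) and 2856 with array weights, against 1357. Of 112 counts of list members at an unadjusted p under 0.05, recomputed over 8 lists and 14 alternatives, 37 moved by over 1.5 times. Of 112 list medians 8 moved by 1 SD of the list mean between arrays or more, and 4 changed sign: adaptors and exchange factors without T173I replicate 1 (0.049) or wild-type replicate 2 (0.010), GTPase-activating proteins without T173I replicate 3 (-0.0058) and parallel kinases without wild-type replicate 3 (-0.023).

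Same-numbered arrays correlated at 0.049, 0.067 and 0.048 in their deviations from the group means and were not paired. With the replicate block, unadjusted calls numbered 1508, and Map2k1 had an unadjusted p of 0.036 and an adjusted p of 0.41. The count of adjusted calls was 0 with and without the block. RMA values carry no background flag, so signals near the filter cannot be told from background.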
